A study of Homo sapiens with 18 samples.

Results

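Chemokines are small secreted or membrane-anchored proteins that draw leukocytes along gradients through receptors on the responding cells. Here 10 chemokine genes were followed, out of 35579 genes listed in the deposited tables: CXCL1, CXCL2, CXCL3, CXCL5, CXCL8, CXCL12, CXCL16, CCL2, CCL20 and CX3CL1. They were taken by name and matched by Ensembl ID, not by their values, and 8, 9 and 9 of the 10 had a row in the 3 tables. Messenger RNA levels come from RNA sequencing of 18 libraries of human cell lines, 3 in each of 6 groups.

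SW480-LM3 is a line taken from SW480 colorectal carcinoma cells through 3 rounds of selection by injection into the spleen, and it was set against the parent, SW480-P. LX-2 cells are a line of human hepatic stellate cells, the collagen-making cells of the liver. EV-XP-NID1-LX-2 cells were given vesicles containing nidogen 1 (NID1), a basement membrane glycoprotein, for 48 hours, and EV-XP-LX-2 cells were given control vesicles. LV5-NID1 cells are SW480 cells that overexpress NID1 and were kept for 72 hours with GW4869, which blocks neutral sphingomyelinase and thereby reduces the release of vesicles. LV5 cells were their control. Whether LV5 cells also received GW4869 is not stated in the labels, so the effects of NID1 and of GW4869 cannot be told apart. They also do not explain the letters XP or say whether replicates were separate cultures, so p-values reflect library-to-library spread that may be purely technical.

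The ELR chemokines CXCL1, CXCL2, CXCL3, CXCL5 and CXCL8 share a glutamate-leucine-arginine motif near the start of the mature protein and attract neutrophils through the receptors CXCR1 and CXCR2. CXCL12 acts through CXCR4 and is cleared by ACKR3, CCL2 attracts monocytes through CCR2, and CCL20 attracts lymphocytes and dendritic cells through CCR6. CXCL16 and CX3CL1 are made as membrane-anchored proteins that metalloproteases release. Stellate cells are a known source of CXCL8, CXCL12 and CCL2 in injured liver, and several of the ELR genes and CCL20 are textbook targets of the transcription factor NF-kB.

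The stretches of 150 bases before the start of the ELR genes, CCL20 and CXCL12 are shown because genes of this set moved both together and apart in the comparisons that follow. Sequences are from RefSeq (GRCh38.p14), which gave an entry for 7 of the 10 genes, and are written 5′ to 3′ on the strand of the gene. Capitals mark 3 motifs on either strand, none of which overlapped another here. The motif called NF-kB-like is spelled GGNNNTTCC. The one called AP-1-like is spelled TGANTCA, and the TATA box is spelled TATAAA. The motifs were chosen after these promoters had been read.
CXCL8 (chr4:73740419-73740568, plus strand): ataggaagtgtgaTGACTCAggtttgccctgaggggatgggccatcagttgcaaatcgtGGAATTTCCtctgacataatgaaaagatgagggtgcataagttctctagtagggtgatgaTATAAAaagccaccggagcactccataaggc
CXCL1 (chr4:73869243-73869392, plus strand): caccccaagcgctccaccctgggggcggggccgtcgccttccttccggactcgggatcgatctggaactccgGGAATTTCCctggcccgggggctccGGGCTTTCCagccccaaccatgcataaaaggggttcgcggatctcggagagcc
CXCL2 (chr4:74099196-74099345, minus strand): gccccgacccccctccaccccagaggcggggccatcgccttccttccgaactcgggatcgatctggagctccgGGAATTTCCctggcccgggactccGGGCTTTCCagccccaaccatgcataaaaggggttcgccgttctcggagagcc
CXCL3 (chr4:74038690-74038839, minus strand): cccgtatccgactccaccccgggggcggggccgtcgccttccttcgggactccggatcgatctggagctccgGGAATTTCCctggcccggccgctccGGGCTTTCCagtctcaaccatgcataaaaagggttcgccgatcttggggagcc
CXCL5 (chr4:73998678-73998827, minus strand): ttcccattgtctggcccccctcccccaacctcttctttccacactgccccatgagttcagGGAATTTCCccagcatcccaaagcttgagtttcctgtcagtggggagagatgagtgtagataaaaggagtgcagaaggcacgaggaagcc
CCL20 (chr2:227813692-227813841, plus strand): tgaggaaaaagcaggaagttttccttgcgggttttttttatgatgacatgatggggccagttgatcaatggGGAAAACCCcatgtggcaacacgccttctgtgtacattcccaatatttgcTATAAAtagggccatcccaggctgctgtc
CXCL12 (chr10:44385098-44385247, minus strand): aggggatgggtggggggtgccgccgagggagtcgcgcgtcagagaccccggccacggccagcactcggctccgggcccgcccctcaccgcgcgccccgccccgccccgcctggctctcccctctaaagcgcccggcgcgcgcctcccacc

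The 5 ELR genes lie in the same cluster on chromosome 4. CXCL1 and CXCL3 hold the NF-kB-like letters from 78 and from 53 bases before the start, and CXCL2 holds them from 77 and from 53. CXCL8 holds them from 91, CXCL5 from 90 and CCL20 from 79 bases before the start, and the CXCL12 stretch holds none. Of 35116 promoters of the same length, 11.1% hold these letters. The AP-1-like letters, held by 4.17% of promoters, were found in CXCL8 at 137 bases, and the TATA letters, held by 6.71%, in CXCL8 at 31 and CCL20 at 29 bases. A match describes the sequence only and is no evidence that a factor was bound in these cells.

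CXCL1, CXCL2 and CXCL3 are also close copies of each other in their coding sequence. CXCL2 matches CXCL3 at 94.4% and CXCL1 at 93.5% of 324 aligned bases, and CXCL1 matches CXCL3 at 90.7%. The method of counting is not given in the sources used here, so the split of reads among these 3 genes is uncertain. CXCL8 matches them at 61.8% to 64.4% of aligned bases.

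Values of the SW480-LM3 and SW480-P table are a signal that behaves as reads divided by 1 factor per library, from 15504205 to 18965163 recovered reads per library, and is not per length. Values of the other tables are TPM, whose depth is unknown. NID1 itself was 44.7, 49.1 and 46.9 in SW480-LM3 against 0.570, 0.582 and 0.352 in SW480-P, and 348, 352 and 379 TPM in LV5-NID1 against 0, 0.04 and 0.02 TPM in LV5. In LX-2 cells NID1 mRNA was 21.7, 18.0 and 22.6 TPM in EV-XP-NID1-LX-2 against 25.1, 25.1 and 25.97 TPM in EV-XP-LX-2. Replicates of a group correlated across genes at r = 0.985 to 0.996 on the log2 scale, except LV5-NID1 replicate 3, which reached 0.959 and 0.969 with the others of its group. Over 14744 genes, the Spearman rho between SW480-LM3 and LV5 was 0.694 and that between SW480-LM3 and EV-XP-LX-2 was 0.713. SW480-P reached 0.886 with LV5 and 0.794 with EV-XP-LX-2, so SW480-LM3 was less like both than its parent was. Change during selection cannot be told apart from an origin of SW480-LM3 in other cells. Colon epithelial markers were mixed in LV5-NID1 and LV5, where all 10 had a row: KRT8 lay between 391 and 798 TPM, KRT18 between 525 and 873 TPM and EPCAM between 4.24 and 9.57 TPM, while VIL1, CDX1, CDX2 and CDH17 were at 0.23 TPM or less in every library. In SW480-P CDH17 was at 0 reads as well, whereas CDX2 lay between 14.3 and 19.8 in the SW480-LM3 and SW480-P libraries. LX-2 libraries held all 9 listed stellate or mesenchymal markers.

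Chemokine mRNA was abundant in LX-2 cells and sparse in LV5 cells. CX3CL1 had no row in LX-2 and CXCL12 none in LV5 cells, so each sum is over the 9 genes with a row. The sums were 4898, 5292 and 4699.8 TPM in EV-XP-NID1-LX-2 and 3325, 4299 and 4205 TPM in EV-XP-LX-2. They were only 19.9, 20.6 and 24.7 TPM in LV5-NID1 and 23.1, 23.1 and 24.0 TPM in LV5. These tables were normalized separately, so levels across them are set side by side without a test. CXCL8 made up 91.3 ± 1.01% of the sum in EV-XP-NID1-LX-2 and 86.5 ± 1.22% in EV-XP-LX-2, and by mean TPM it ranked 8 and 17 of 31585 listed genes. In LV5-NID1 and LV5 the largest share was that of CXCL16, 58.2 ± 5.51% and 51.6 ± 2.25%, and CXCL8 held 9.91 ± 0.981% and 8.70 ± 0.834% (SD, n = 3 each).

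**Figure D1:**
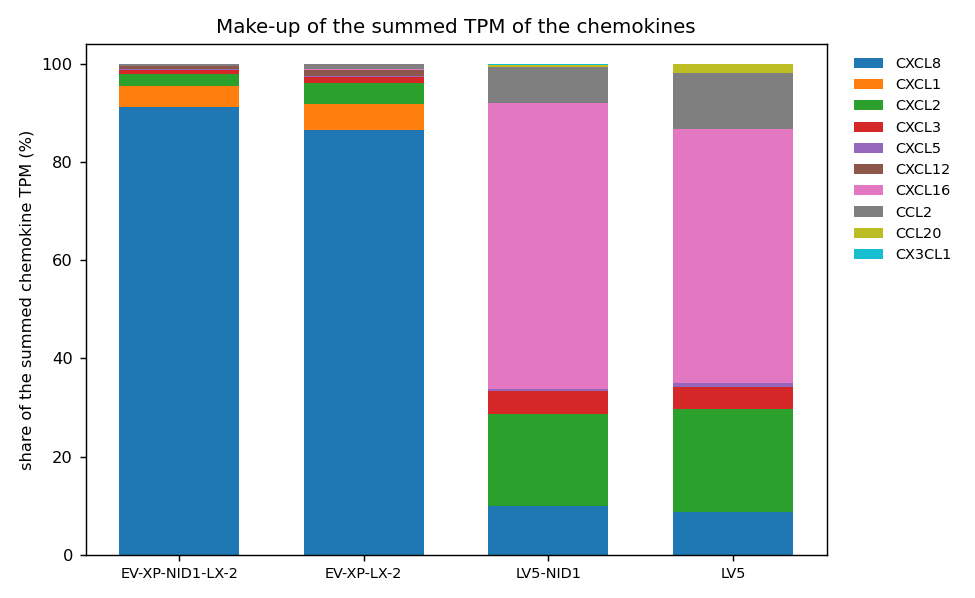
Mean share (percent, over 3 libraries) of each chemokine in the summed TPM of the 9 genes with a row, for EV-XP-NID1-LX-2, EV-XP-LX-2, LV5-NID1 and LV5. CX3CL1 has no row in LX-2 and CXCL12 none in LV5 cells. CXCL8 fills 91.3% and 86.5% of the LX-2 bars, and CXCL16 fills 58.2% and 51.6% of the LV5 bars.

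The order of levels differed between the LX-2 groups. With control vesicles CXCL8 was followed by CXCL1, from 190 to 221 TPM, and CXCL2, from 157 to 187 TPM. Then came CXCL3, CXCL12 and CCL2, whose libraries overlapped between 43.0 and 52.3 TPM. With NID1 vesicles these 3 genes separated, with CXCL3 between 34.9 and 41.1 TPM, CXCL12 between 26.5 and 31.4 TPM and CCL2 between 19.4 and 20.8 TPM. CXCL16 and CXCL5 overlapped in both groups, at 5.01 to 7.02 TPM and 4.43 to 6.32 TPM, and CCL20 was lowest of the listed genes at 1.36 to 2.05 TPM. In LV5-NID1 the order by mean was CXCL16, CXCL2, CXCL8, CCL2 and CXCL3, with CXCL8 and CCL2 overlapping, and in LV5 it was CXCL16, CXCL2, CCL2, CXCL8 and CXCL3, without overlap.

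**Figure D2:**
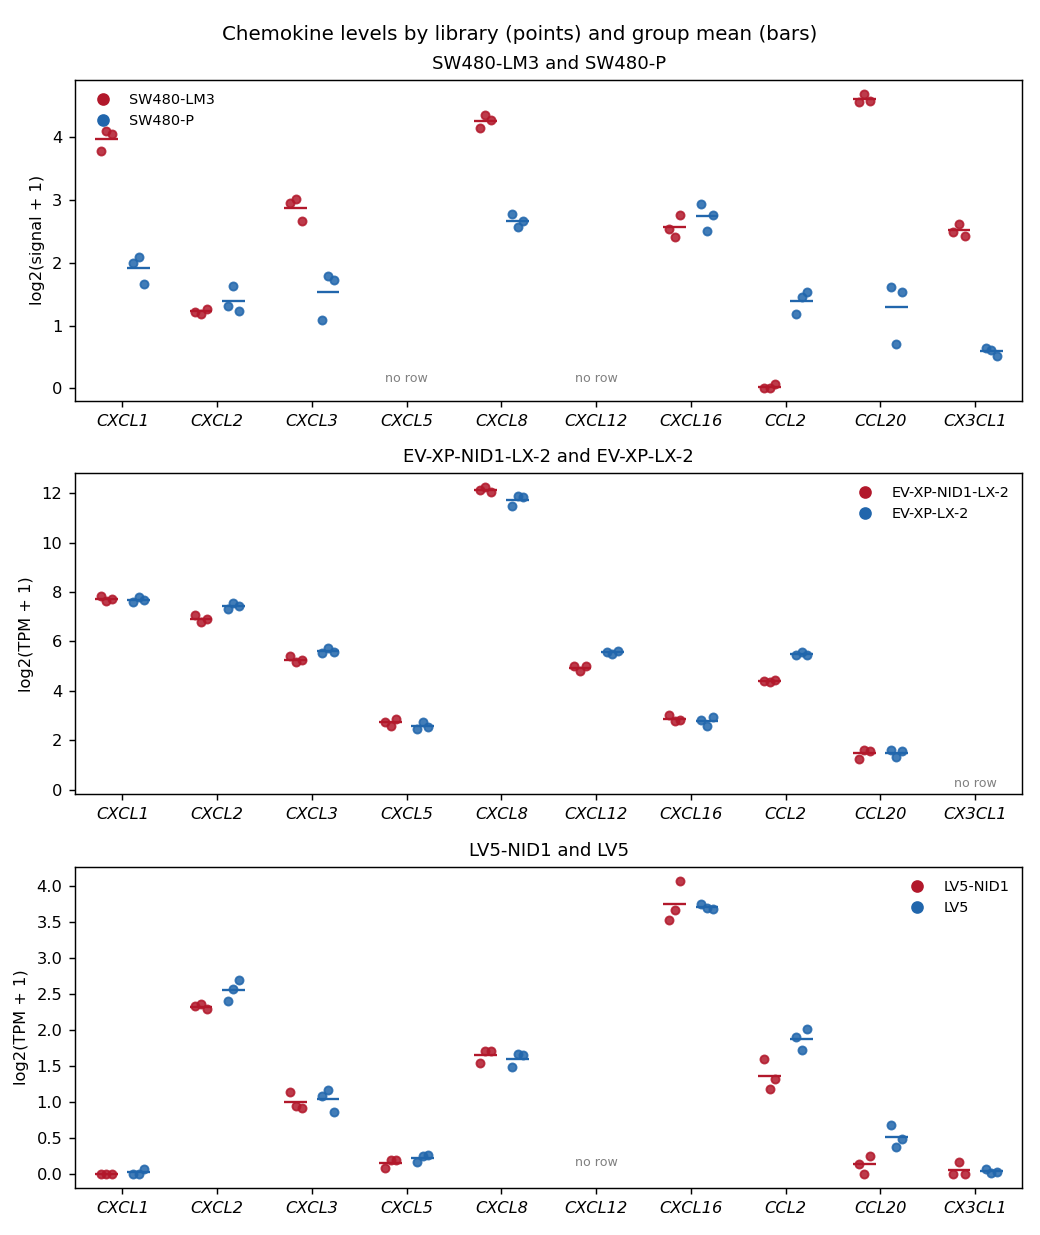
Level of each chemokine in every library as log2(value + 1), as TPM in LX-2 and LV5 cells and as signal in the SW480-LM3 table, with bars at group means. CXCL8 lies near 12 in all LX-2 libraries, and CXCL5, CXCL12 and CX3CL1 have no row in 1 or more tables.

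The first comparison asks which chemokines distinguish the liver-selected line SW480-LM3 from SW480-P. Among the ELR genes CXCL1, CXCL3 and CXCL8 rose 5.28-, 3.25- and 3.37-fold by the ratio of means. The membrane-anchored CX3CL1 rose 9.36-fold and CCL20 15.2-fold. CCL2 fell to almost no reads. In all, 5 of the 8 genes tested rose and 1 fell, where limma called 87.8% of all 14527 genes, 43.9% higher and 43.9% lower. With so many genes called, a count of this size is near the background. The median log2 fold change was 1.46 over the 8 genes and -0.004 over all genes. CX3CL1 and CCL2 passed the filter on low values only through the group where they were high, and so had to differ.

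CXCL1 (ENSG00000163739) had a signal of 12.8, 16.1 and 15.6 in SW480-LM3 against 2.99, 3.26 and 2.19 in SW480-P. All SW480-LM3 libraries were high and the groups did not overlap, as in 87.6% of tested genes. The means were 14.8 ± 1.79 and 2.81 ± 0.560 (SD, n = 3 each), a ratio of 5.28, and the log2 fold change was 2.06 (SE 0.14, adjusted p = 2.63e-09). CXCL8 (ENSG00000169429), a major neutrophil attractant, had 16.7, 19.4 and 18.3 in SW480-LM3 against 5.84, 4.95 and 5.36 in SW480-P. Its log2 fold change was 1.58 (SE 0.11, adjusted p = 2.93e-09). CXCL3 (ENSG00000163734) had 6.75, 7.08 and 5.37 in SW480-LM3 against 1.14, 2.45 and 2.33 in SW480-P, again without overlap. Its log2 fold change was 1.34 (SE 0.18, adjusted p = 6.07e-06).

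CXCL2 (ENSG00000081041), the close copy of CXCL1 and CXCL3, had 1.34, 1.29 and 1.41 in SW480-LM3 against 1.50, 2.097 and 1.34 in SW480-P. The groups overlapped, and the 95% interval of the log2 difference, -0.48 to 0.16, does not reach the values fitted for CXCL1, CXCL3 and CXCL8. Only 71 reads in SW480-LM3 and 76 in SW480-P lie behind CXCL2, against 783 and 129 behind CXCL1. CXCL6, an ELR chemokine outside the 10, had 7.44, 6.96 and 7.43 in SW480-LM3 against 0.142, 0.058 and 0.282 in SW480-P.

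CCL20 (ENSG00000115009) had 22.7, 24.7 and 22.8 in SW480-LM3 against 2.07, 0.641 and 1.90 in SW480-P. The SW480-LM3 libraries lay close together, while SW480-P replicate 2 was lower than the other two. The ratio of means was 15.2 and the log2 fold change 3.32 (SE 0.19, adjusted p = 3.80e-10), from 1232 reads against 67. CCL2 (ENSG00000108691) had 0, 0 and 1 read in SW480-LM3 against 18, 30 and 27 reads in SW480-P. It was 87.1-fold lower by reads, with an exact 95% counting interval of 15.2 to 3486, and its log2 fold change was -1.37 (SE 0.15, adjusted p = 5.83e-07) because 1 is added to each value.

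CX3CL1 (ENSG00000006210), known as fractalkine, had 4.65, 5.15 and 4.39 in SW480-LM3 against 0.570, 0.524 and 0.423 in SW480-P. The ratio was 9.36 and the log2 fold change 1.93 (SE 0.14, adjusted p = 3.93e-09). CXCL16 (ENSG00000161921), the other membrane-anchored chemokine, had 4.83, 4.33 and 5.75 in SW480-LM3 against 6.69, 4.72 and 5.78 in SW480-P. These groups overlapped, with an interval of -0.48 to 0.14 for the log2 difference. CXCL5 and CXCL12 had no row in this table and were not analysed there.

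**Figure D3:**
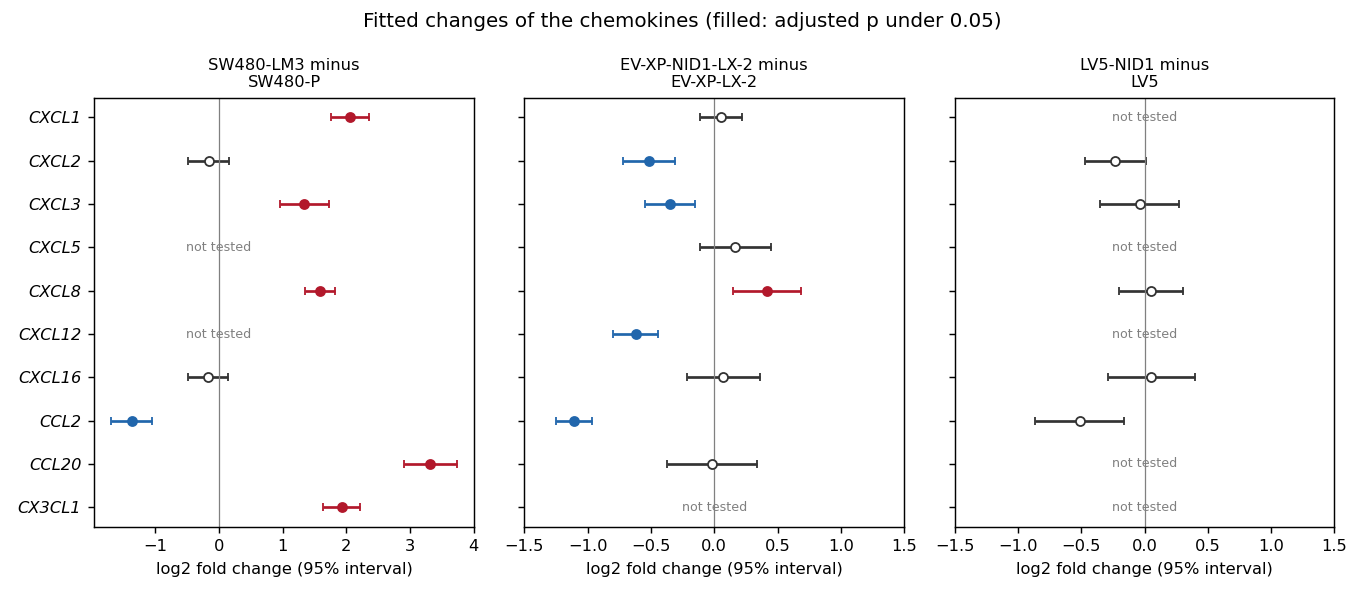
Log2 fold changes with 95% intervals from limma for the chemokines in SW480-LM3 minus SW480-P, EV-XP-NID1-LX-2 minus EV-XP-LX-2 and LV5-NID1 minus LV5, with filled points where the adjusted p was under 0.05. The horizontal scale of the SW480-LM3 panel is wider, and its largest point is CCL20 at 3.32.

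Receptors and processing enzymes moved in SW480-LM3 as well. Of 23 chemokine receptors 4 had a row and 3 were tested, and all 3 fell, where 43.9% of all genes tested were called lower. CXCR4 had 1.22, 0.995 and 1.90 in SW480-LM3 against 23.1, 23.1 and 25.03 in SW480-P, a log2 fold change of -3.40 (SE 0.14, adjusted p = 8.45e-12). ACKR3 had 0 reads in every SW480-LM3 library against 21.0, 21.1 and 21.7 in SW480-P, at least 124-fold lower taking 3 reads per library as the floor. CCR7, a lymph node homing receptor, averaged 0.705 ± 0.0933 in SW480-LM3 and 4.16 ± 0.0907 in SW480-P (adjusted p = 2.76e-08). ACKR3 and CCR7 passed the filter on low values only through SW480-P and so had to differ.

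Of 34 other chemokine ligands 5 had a row in this table and were called higher. Of these, CXCL6, CCL15, CCL24 and XCL1 passed the filter on low values only through SW480-LM3 and so had to be higher, which leaves CCL28. CCL28, a mucosal chemokine, averaged 10.96 ± 0.0336 in SW480-LM3 and 4.87 ± 0.0994 in SW480-P (adjusted p = 4.30e-07). XCL1 averaged 1.45 ± 0.351 in SW480-LM3 and had 0 reads in SW480-P, at least 7.26-fold higher. Of 13 genes for proteases, sheddases and their regulators 8 were tested, 3 rose and 5 fell. Over all genes tested 43.9% were called higher and 43.9% lower. RHBDF2, whose product iRhom2 brings the sheddase ADAM17 to the cell surface, averaged 71.6 ± 5.47 in SW480-LM3 and 7.92 ± 0.981 in SW480-P (adjusted p = 2.29e-13). TIMP3, an inhibitor of ADAM17, averaged 3.62 ± 0.147 in SW480-LM3 and 24.9 ± 0.651 in SW480-P (adjusted p = 6.16e-12). ANPEP, a cell surface aminopeptidase, averaged 0.546 ± 0.321 and 14.6 ± 0.896 (adjusted p = 3.88e-11). ANPEP passed the filter only through SW480-P and MMP7 only through SW480-LM3, so the direction of these 2 calls was fixed. ADAM10 and ADAM17 themselves fell by 0.23 and 0.18 on the log2 scale as deposited (adjusted p = 0.000975 and 0.0376). The ADAM17 groups overlapped, from 36.0 to 40.8 in SW480-LM3 and from 40.4 to 49.3 in SW480-P. Dividing each library by its own total moved the median of all genes to 0.26, which is more than either fall. The direction for ADAM10 and ADAM17 thus rests on the deposited scaling.

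NF-kB and IL1/TNF signalling genes were split in SW480-LM3, with 10 higher and 9 lower of 23 tested and a median log2 fold change of 0.12. Over all genes tested 43.9% were called higher and 43.9% lower. IL1R1 was among the lower ones and passed the filter only through SW480-P. TNFRSF1B, a TNF receptor, averaged 186 ± 4.25 in SW480-LM3 and 23.4 ± 2.35 in SW480-P (adjusted p = 5.44e-15). MYD88, the adaptor of IL1 and Toll-like receptors, averaged 74.5 ± 2.99 and 30.1 ± 1.15 (adjusted p = 1.94e-11), and the NF-kB subunit RELA averaged 83.0 ± 3.03 and 38.4 ± 1.70 (adjusted p = 7.01e-11). Colon epithelial markers moved with these groups, summing to 13192 to 13906 in SW480-LM3 and 3522 to 3790 in SW480-P, and 7 of 8 were called higher, CDH17 having passed the filter only through SW480-LM3. Stellate or mesenchymal markers moved too, summing to 685 to 729 in SW480-LM3 and 552 to 578 in SW480-P, and of 6 tested 4 were called higher and none lower. VIM made up most of these sums, averaging 662 ± 26.4 in SW480-LM3 and 556 ± 12.7 in SW480-P. ACTA2 averaged 0.459 and 0.932 and was not tested, PDGFRB averaged 1.20 and 1.62 and was not called, and COL1A2, COL3A1 and THY1 had no row. TAGLN was 13.2, 13.7 and 16.3 in SW480-LM3 against 4.70, 5.71 and 4.65 in SW480-P. LUM was 19.1, 15.8 and 19.5 in SW480-LM3 against 0 reads in SW480-P, at least 90.6-fold higher and tested only through SW480-LM3. Of 8 leukocyte markers LYZ alone had a row, at 6.09 to 7.68 in SW480-LM3 and 0 to 0.466 in SW480-P, so it too passed only through SW480-LM3. The part of these marker changes in the chemokine values was not tested.

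The next comparison asks how NID1 vesicles changed the chemokines of LX-2 stellate cells. The most abundant of them, CXCL8, rose 1.33-fold, while CXCL2, CXCL3, CXCL12 and CCL2 fell, CCL2 to 0.452 of its mean with control vesicles. CXCL1 did not pass the test. In all, 1 of the 9 genes tested rose and 4 fell, where limma called 42.3% of 15802 genes, 17.8% higher and 24.6% lower. The groups did not overlap for 5 of the 9, against 55.9% of all genes tested. The median log2 fold change was -0.02 over the 9 genes and -0.05 over all genes. In a culture measured in bulk, fewer cells that make a chemokine and less mRNA per cell cannot be told apart.

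CXCL8 had 4433, 4890.3 and 4270 TPM in EV-XP-NID1-LX-2 against 2832, 3736 and 3680.2 TPM in EV-XP-LX-2. Every NID1 vesicle library was above every control library, and control replicate 1 was the lowest. The means were 4531 ± 322 and 3416 ± 506 TPM (SD, n = 3 each), and the log2 fold change was 0.42 (SE 0.11, adjusted p = 0.0225). Leaving out EV-XP-NID1-LX-2 replicate 2 ended the call (adjusted p = 0.0626), as did testing with no filter on low values (0.0924), over a range of 0.00915 to 0.0924, and the change was 0.63 with quantile normalization.

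CXCL1 had 226, 199 and 208 TPM in EV-XP-NID1-LX-2 against 190, 221 and 201 TPM in EV-XP-LX-2. These groups overlapped, and the interval of the log2 difference was -0.12 to 0.22 (adjusted p = 0.595). CXCL2 had 132, 109 and 119.5 TPM in EV-XP-NID1-LX-2 against 157, 187 and 173 TPM in EV-XP-LX-2. All NID1 vesicle libraries were lower, with a log2 fold change of -0.51 (SE 0.09, adjusted p = 0.0035). CXCL3 had 41.1, 34.9 and 36.5 TPM in EV-XP-NID1-LX-2 against 44.8, 52.3 and 46.9 TPM in EV-XP-LX-2, a log2 fold change of -0.35 (SE 0.08, adjusted p = 0.0134). CXCL1 thus differed from its close copies in whether it was called, and that difference between genes was not tested. CXCL5 had 5.65, 5.02 and 6.32 TPM in EV-XP-NID1-LX-2 against 4.43, 5.65 and 4.75 TPM in EV-XP-LX-2, with overlap and an interval of -0.11 to 0.45.

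CCL2 had 19.96, 19.4 and 20.8 TPM in EV-XP-NID1-LX-2 against 43.2, 46.9 and 43.0 TPM in EV-XP-LX-2. The groups were far apart and tight, with a ratio of 0.452 and a log2 fold change of -1.11 (SE 0.06, adjusted p = 0.000163). CXCL12 (ENSG00000107562) had 31.4, 26.5 and 30.8 TPM in EV-XP-NID1-LX-2 against 46.1, 44.0 and 47.5 TPM in EV-XP-LX-2. It also stood apart in every library, with a log2 fold change of -0.62 (SE 0.08, adjusted p = 0.00107). The groups overlapped for CXCL16, with an interval of -0.22 to 0.36, and for CCL20, with an interval of -0.37 to 0.34. CX3CL1 had no row in this table and was not analysed there.

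**Figure D4:**
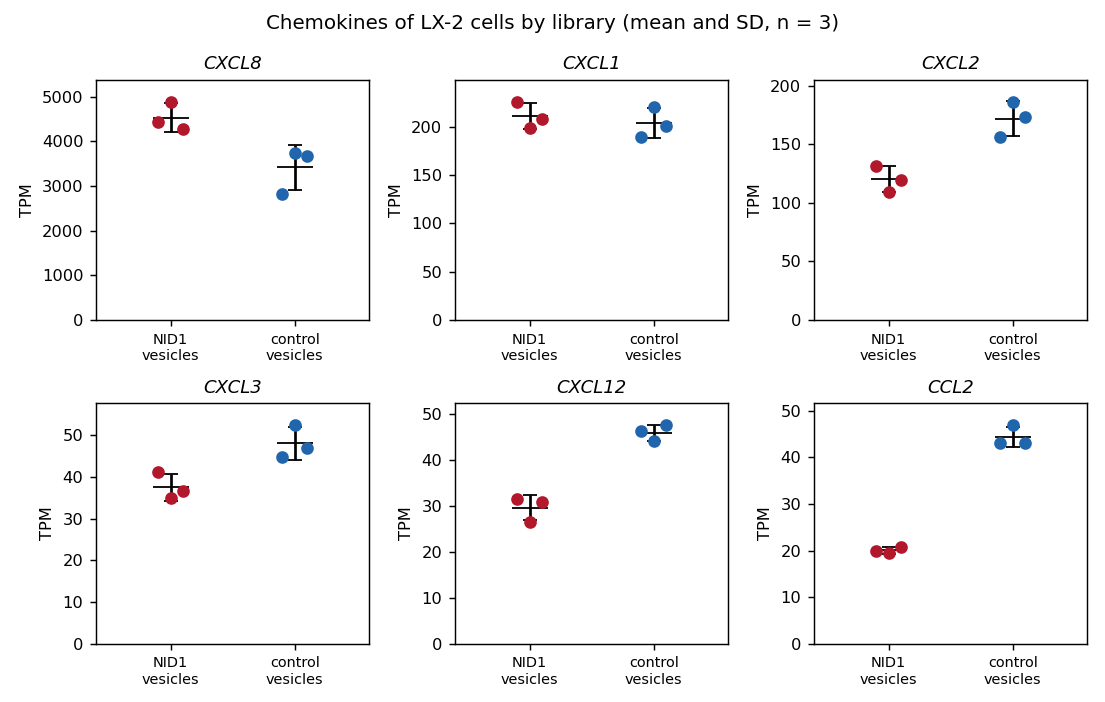
TPM of CXCL8, CXCL1, CXCL2, CXCL3, CXCL12 and CCL2 in the 3 libraries with NID1 vesicles and the 3 with control vesicles (points), with mean and SD. CXCL8 averages 4531 TPM against 3416 TPM, CXCL1 overlaps between groups, and the other 4 are lower with NID1 vesicles in every library.

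Few other ligands and receptors were measurable in LX-2. Of 34 other ligands 3 were tested, and CCL5, an attractant of T cells and monocytes, fell to 1.20 ± 0.0900 TPM in EV-XP-NID1-LX-2, against 2.02 ± 0.285 TPM in EV-XP-LX-2 (adjusted p = 0.0240). Of 23 receptors 4 were tested, with 1 called higher and 1 lower. Of all genes tested 42.3% were called, 17.8% higher and 24.6% lower, so these counts are near the background. CXCR4 had 1.01, 1.74 and 1.17 TPM in EV-XP-NID1-LX-2 against 0.39, 0.60 and 0.79 TPM in EV-XP-LX-2 (adjusted p = 0.0446), and CCR10 averaged 3.19 ± 0.346 and 4.33 ± 0.365 TPM (adjusted p = 0.0394). CXCR4 entered the test only through the NID1 vesicle libraries, since all control libraries were under 1 TPM, and so had to be higher. For CCL5 the call ended on leaving out control replicate 2 or 3, or NID1 vesicle replicate 2 or 3, and with no low filter (adjusted p = 0.0526 to 0.0802, in a range from 0.0218). The CXCR4 call was lost without any of the control libraries or NID1 vesicle replicate 2 or 3, at a pseudocount of 0.1 and with no low filter (0.0513 to 0.136, in a range from 0.0443). The CCR10 call was lost without any library, with no low filter and with quantile normalization (0.0550 to 0.119, in a range from 0.0316).

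Among proteases, sheddases and their regulators in LX-2 2 rose and 4 fell of 9 tested. Over all genes tested 17.8% were called higher and 24.6% lower. MMP3, a matrix protease, averaged 15.4 ± 0.761 TPM in EV-XP-NID1-LX-2 and 7.82 ± 0.869 TPM in EV-XP-LX-2 (adjusted p = 0.00062). MMP2, which trims CCL7 and CXCL12, averaged 73.6 ± 9.27 and 129 ± 10.8 TPM (adjusted p = 0.00123), and RHBDF2 averaged 14.4 ± 1.48 and 24.4 ± 1.61 TPM (adjusted p = 0.00116). NF-kB and IL1/TNF genes were 5 higher and 5 lower of 26 tested, with a median of -0.01. IL1B, a cytokine that induces CXCL8 in many cells, had 768, 795 and 796 TPM in EV-XP-NID1-LX-2 against 1148, 1124 and 1105 TPM in EV-XP-LX-2 (adjusted p = 0.000295). TNFRSF1B averaged 3.62 ± 0.397 and 7.55 ± 0.329 TPM (adjusted p = 0.000785), and the kinase gene IKBKB averaged 41.5 ± 2.26 and 57.5 ± 1.08 TPM (adjusted p = 0.000996).

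Stellate or mesenchymal markers moved with the vesicle groups, summing to 1714 to 2023 TPM in EV-XP-NID1-LX-2 and 2408 to 2587 TPM in EV-XP-LX-2. VIM made up most of these sums, averaging 1341 ± 127 and 1887 ± 80.8 TPM. VIM, COL1A1, COL3A1 and PDGFRB fell, 4 of 9, against 24.6% of all genes tested. The rest were not called, and of these TAGLN (300 and 286 TPM) and LUM (18.1 and 15.9 TPM) had higher means with NID1 vesicles. The part of these markers in the chemokine values was not tested. Leukocyte markers summed to 1.59 to 3.14 TPM in EV-XP-NID1-LX-2 and 2.95 to 3.16 TPM in EV-XP-LX-2. CD14 was the highest of them by mean, at 1.33 and 1.54 TPM, and was not called. The pan-leukocyte marker PTPRC was at 0.11 TPM or less in each library.

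The remaining comparison concerns SW480 cells that overexpress NID1 and received GW4869. No chemokine was called there: of 9 listed 5 were tested, limma called none of them higher or lower, and 1 of the 5, CCL2, had an unadjusted p under 0.05 (no other tool was run on TPM). Over all 15508 genes 7.27% were called higher and 9.32% lower, or 16.6% in all. The median log2 fold change was -0.04 over the 5 genes and 0.006 over all genes.

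CCL2 had 2.02, 1.26 and 1.50 TPM in LV5-NID1 against 2.72, 2.29 and 3.05 TPM in LV5. The groups did not overlap, as in 43.3% of tested genes, and the log2 difference was -0.51 with an interval of -0.87 to -0.16 (adjusted p = 0.0617). CXCL2 had 4.03, 4.13 and 3.88 TPM in LV5-NID1 against 4.28, 4.96 and 5.48 TPM in LV5, also without overlap, with an interval of -0.47 to 0.01 (adjusted p = 0.158). CXCL8 had 1.91, 2.27 and 2.25 TPM in LV5-NID1 against 1.80, 2.17 and 2.14 TPM in LV5, with overlap and an interval of -0.20 to 0.30. CXCL3 had 1.20, 0.92 and 0.89 TPM in LV5-NID1 against 1.12, 1.24 and 0.82 TPM in LV5, with an interval of -0.35 to 0.28.

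CXCL16 had 10.6, 11.8 and 15.8 TPM in LV5-NID1 against 12.5, 11.9 and 11.8 TPM in LV5. The high value is that of LV5-NID1 replicate 3, the library that stood apart. The log2 difference was 0.05 with an interval of -0.29 to 0.40, and -0.10 without that library (adjusted p = 0.361, in a range of 0.361 to 0.897). Without it none of the 5 was called either. CCL20 was under the filter, at 0.10, 0 and 0.19 TPM in LV5-NID1 against 0.60, 0.29 and 0.40 TPM in LV5, and was not tested. CXCL1 was listed at 0 in every LV5-NID1 library and at 0, 0 and 0.04 TPM in LV5, CXCL5 lay at 0.20 TPM or less and CX3CL1 at 0.12 TPM or less, and CXCL12 had no row.

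ACKR3 averaged 14.9 ± 1.71 TPM in LV5-NID1 and 21.7 ± 0.376 TPM in LV5 (adjusted p = 0.0162). CXCR4, the other CXCL12 receptor, had 21.1, 21.3 and 23.6 TPM in LV5-NID1 against 18.3, 18.8 and 15.9 TPM in LV5 and was not called (adjusted p = 0.0601). CTSB, the protease cathepsin B, averaged 103 ± 2.56 and 144 ± 5.16 TPM (adjusted p = 0.00369). TIMP3 averaged 5.24 ± 0.437 and 7.36 ± 0.115 TPM (adjusted p = 0.0209) and ANPEP 31.7 ± 1.81 and 43.8 ± 4.69 TPM (adjusted p = 0.0250). These 3 of 7 tested were the genes of that list that fell, against 9.32% of all genes tested. The calls for ACKR3, TIMP3 and ANPEP were lost without LV5 replicate 1, 2 or 3 or LV5-NID1 replicate 2. That for TIMP3 was also lost without LV5-NID1 replicate 1 and with quantile normalization, and that for ANPEP with no low filter. Over alternatives the adjusted p ranged from 0.00265 to 0.0705 for ACKR3, 0.00987 to 0.0866 for TIMP3 and 0.0226 to 0.0915 for ANPEP.

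**Figure D5:**
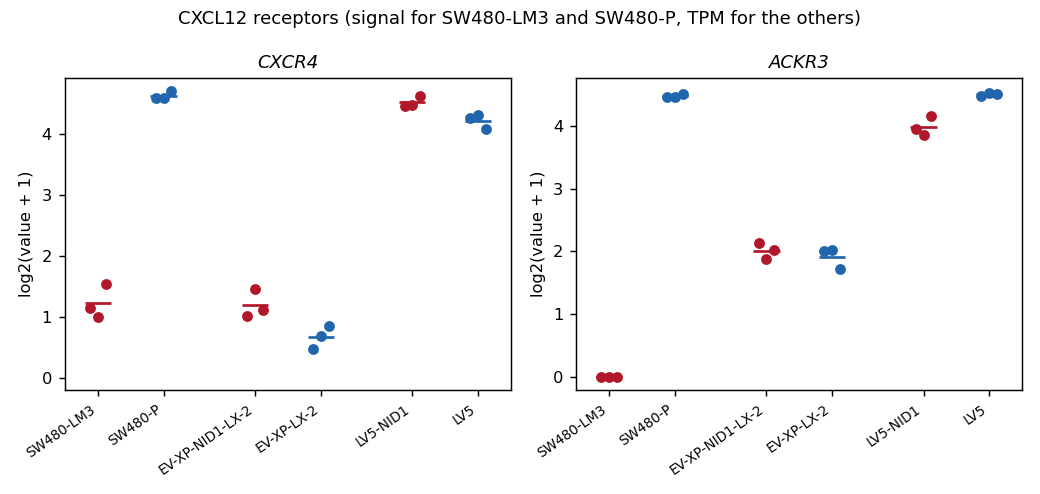
Level of the CXCL12 receptors CXCR4 and ACKR3 in every library as log2(value + 1), as TPM in LX-2 and LV5 cells and as signal in the SW480-LM3 table, with bars at group means. ACKR3 is at 0 in all SW480-LM3 libraries and near 21 in SW480-P before the log.

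NF-kB and IL1/TNF genes were 1 higher and 8 lower of 23 tested in LV5-NID1, with a median log2 fold change of -0.11. Over all genes tested 7.27% were called higher and 9.32% lower. This split was not counted under the alternatives, where leaving out 1 LV5 library cut all called genes from 2572 to between 713 and 1045. IL6 had 1.45, 1.28 and 1.43 TPM in LV5-NID1 against 4.0, 4.02 and 3.22 TPM in LV5 (adjusted p = 0.00436). ICAM1, an adhesion molecule for leukocytes, averaged 13.3 ± 1.99 and 22.0 ± 0.470 TPM (adjusted p = 0.0136), and IL1A averaged 0.467 ± 0.0473 and 1.20 ± 0.0153 TPM (adjusted p = 0.0145). IL1A passed the filter only through LV5 and so had to be lower. The ICAM1 and IL1A calls were lost without LV5 replicate 1, 2 or 3, and that for IL1A also without LV5-NID1 replicate 2, in ranges of 0.003 to 0.0624 and 0.0132 to 0.069. Colon epithelial markers moved with these groups, summing to 927 to 988 TPM in LV5-NID1 and 1633 to 1671 TPM in LV5, and of 4 tested 3 were called lower and 1, EPCAM, higher. KRT19, one of the lower ones, passed the filter only through LV5. Their part was not tested.

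Across the 3 comparisons 5 of the 10 genes were tested each time. CCL2 had log2 fold changes of -1.37, -1.11 and -0.51 in SW480-LM3, EV-XP-NID1-LX-2 and LV5-NID1, of which the last was not called. The value of -1.37 rests on 1 read against 75 and is set by the 1 added to each value. It ran from -6.36 to -0.40 over alternatives, so its size cannot be compared with the others. CCL2 passed the filter there only through SW480-P, and its distances to other genes below use the same value. CXCL8 had 1.58, 0.42 and 0.05, and CXCL3 had 1.34, -0.35 and -0.04. Among 11562 genes tested in all comparisons, the nearest to CCL2 by Euclidean distance over the 3 changes were TMEM256, NTHL1 and AHNAK2, at 0.247, 0.263 and 0.306. The nearest to CXCL8 were UBAP2, ATP6V0A1 and CNOT6L, at 0.0201, 0.0896 and 0.0909, and to CXCL3 they were LRFN3, ERCC5 and WASH3P, at 0.0469, 0.0547 and 0.0618. Such closeness describes 3 numbers per gene and carries no test.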

How the data were processed

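The authors deposited 3 gene tables with 1 column per library. Signal, the unit for SW480-LM3 and its parent, was, as deposited by the authors and judged from its values, made from reads scaled by a factor for each library: undoing the factor gave reads that were whole, to within 0.05 read, for 100% of values. The other tables were deposited by the authors as TPM. HISAT2 2.1.0 and Bowtie2 2.3.5 appear in the submitters' processing notes without a role. The sources used here give no build, annotation or counting tool. Each table was tested alone with limma 3.58.1 (variance trend) on log2(value + 1), keeping genes that reached 1 in 3 or more libraries, with Benjamini-Hochberg adjustment over all genes tested and a threshold of 0.05. Fold changes on this scale understate those of low genes. Recovered reads were also tested with edgeR 4.0.16 and DESeq2 1.42.0. Counting intervals cover counting error only, and none is given for TPM. The scripts were tested on simulated data.

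The chemokines and the gene lists were chosen with earlier results of these data known. Named beside the 10 chemokines are up to 3 called genes with the smallest adjusted p from each list, and the genes nearest in pattern. CXCR4 in LV5-NID1 is given as the other CXCL12 receptor, and ADAM10, ADAM17, CCL15, CCL24, MMP7, IL1R1 and the marker genes were chosen after their values were seen. Symbols were matched by Ensembl ID for 15042 of 15543, 30183 of 31585 and 30861 of 32555 genes. Alternatives were other pseudocounts (0.1 and 5), filters, scalings, a replicate block and leaving out each library.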

Additional observations from a re-analysis of the deposited data

How the results depend on the processing

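In SW480-LM3 the 6 chemokine calls were the same count with every alternative run except a mean of at least 5, where 3 of the 4 chemokines left were called. edgeR and DESeq2 on recovered reads called 13107 of 15171 and 12940 of 15543 genes, against 12749 of 14527 with limma. Dividing each library by its own total moved the median of all genes to 0.26, and the log2 changes of CXCL2 and CXCL16 to 0.01 and 0.07. The change fitted for CCL2 ran from -6.36 to -0.40 and that for CX3CL1 from 0.82 to 3.20 over alternatives, the extremes being DESeq2 and a pseudocount of 5. In LX-2 the chemokine calls other than CXCL8 held in all alternatives. Of all genes called there 41.9% were higher, against 51.1% with quantile normalization and 50.6% with scaling by median ratios. The larger share of lower genes in LX-2 thus rests on the deposited scaling. In LV5-NID1 none of the chemokines was called under any alternative, but the count over all genes, 2572, was 1532 with no low filter and 713 to 3325 with 1 library left out: 1675 without LV5-NID1 replicate 1, 750 without replicate 2, 3325 without replicate 3, and 713, 714 and 1045 without LV5 replicate 1, 2 and 3. With quantile normalization 54.7% of called genes were higher in LV5-NID1, in place of 43.8%. Libraries that share a replicate number across groups showed no common deviation (r = -0.047 to 0.063) and were not treated as pairs. With a replicate block 12725, 5956 and 890 genes were called in SW480-LM3, LX-2 and LV5-NID1, against 12749, 6687 and 2572, and the chemokine calls were 6, 5 and 0 as without it. In LX-2 the calls of CCL5, CCR10 and CXCR4 were lost under the block, and in LV5-NID1 those of ACKR3, ANPEP, IL1A and TIMP3. The library matched its own number best in 1 of 3 replicates in LX-2 and in LV5-NID1 and in 0 of 3 in SW480-LM3. Depth limits CXCL2, with 71 and 76 reads in SW480-LM3 and SW480-P, and CCL2, with 1 and 75. It also limits CX3CL1 and CCL20 in SW480-P, with 23 and 67 reads.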
